A study of Oryzias latipes with 84 samples.

Results

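The growth hormone gene gh (ENSORLG00000019556) was followed in 84 Japanese medaka (Oryzias latipes), 68 females and 16 males, each with a bulk RNA-seq library of its own pituitary. It is 1 of the 24364 entries of the count table (24363 Ensembl genes and the GFP cassette), and its level is described by sex, labelled age and body length. All fish came from 1 transgenic d-rR line, lhb:GFP, in which the promoter of lhb, the gene of the luteinizing hormone β-subunit, drives green fluorescent protein. No group lacked the transgene and none was treated, so that the groups differ in sex, age in days post fertilization (dpf) and body length only as far as the labels say. The 11 female groups hold fish of 32-35 (n = 4), 37-39 (4), 44-49 (8), 53 (5), 58-59 (4), 64-74 (10), 79-92 (10), 96-111 (11), 131-179 (6), 249-277 (3) and 375 dpf (3), and the 4 male groups 4 fish each of 38, 57, 70 and 134 dpf. For most males of the group of 134 dpf the methods text gives a younger age than the label. The label was used, and all results on this group depend on it. Ages were grouped here, and each fish counts as 1 replicate. Body length ran from 9.5 to 29.0 mm in females and from 12.0 to 28.0 mm in males, and age and length grow together, so that most comparisons of ages are comparisons of sizes as well.

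Growth hormone is a pituitary hormone that drives body growth, largely through insulin-like growth factor 1 released by the liver and other tissues. In teleosts it is made by somatotropes, endocrine cells of the proximal pars distalis, and the hypothalamus controls its release through stimulating and inhibiting factors. Prolactin and somatolactin, the products of prl and smtla, belong to the same hormone family. In mammals the transcription factor Pou1f1 is needed for the cells that make growth hormone, prolactin and thyrotropin. On the RefSeq assembly ASM223467v1 the gene lies on chromosome 8, where the protein-coding entry with the same 3′ end, LOC101171460, stops 417 bp before the next gene, cdc27. The authors shortened the 3′ exon of gh for counting, and the original exon ran past the start of that neighbour.

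Sequencing depth, as the sum of counts, lay between 2424546 and 9348785 (median 6493890). Levels are given as CPM, the counts of a gene scaled to library size. As markers of the tissue, the 8 hormone genes (gh, prl, smtla, tshba, cga, fshb, lhb and pomca) together took 1.48 to 38.1% of the counts, with a median of 24.8%. In 5 libraries the 7 hormone genes other than gh took less than 10% of the counts. These were 3 females, of 66, 79 and 179 dpf, 1 male of 38 dpf and 1 male of 70 dpf. Part of the results that rest on them, but not all, are given with and without them. The low-hormone male of 70 dpf also stood apart in the 2 listed genes of antigen-presenting cells, CD74 and orla-DCA, at a summed 6539 CPM against 178 to 2255 CPM in the other 83 libraries. All p-values measure the spread between single fish, and amplified reads without molecular identifiers are not independent molecules.

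gh was detected in all 84 libraries, with 13723 to 653296 counts, so that counting error is small beside the differences between fish. Its lowest level was 2936 CPM, in the low-hormone female of 79 dpf, and its highest 89420 CPM, in a female of 375 dpf. The median was 39517 CPM in females and 25525 CPM in males. The transcript of this 1 hormone took several percent of all counts in most pituitaries, and fish of 1 age group often differed from each other more than the group means did. In a whole pituitary, fewer somatotropes and less gh RNA per somatotrope cannot be told apart.

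**Figure D1:**
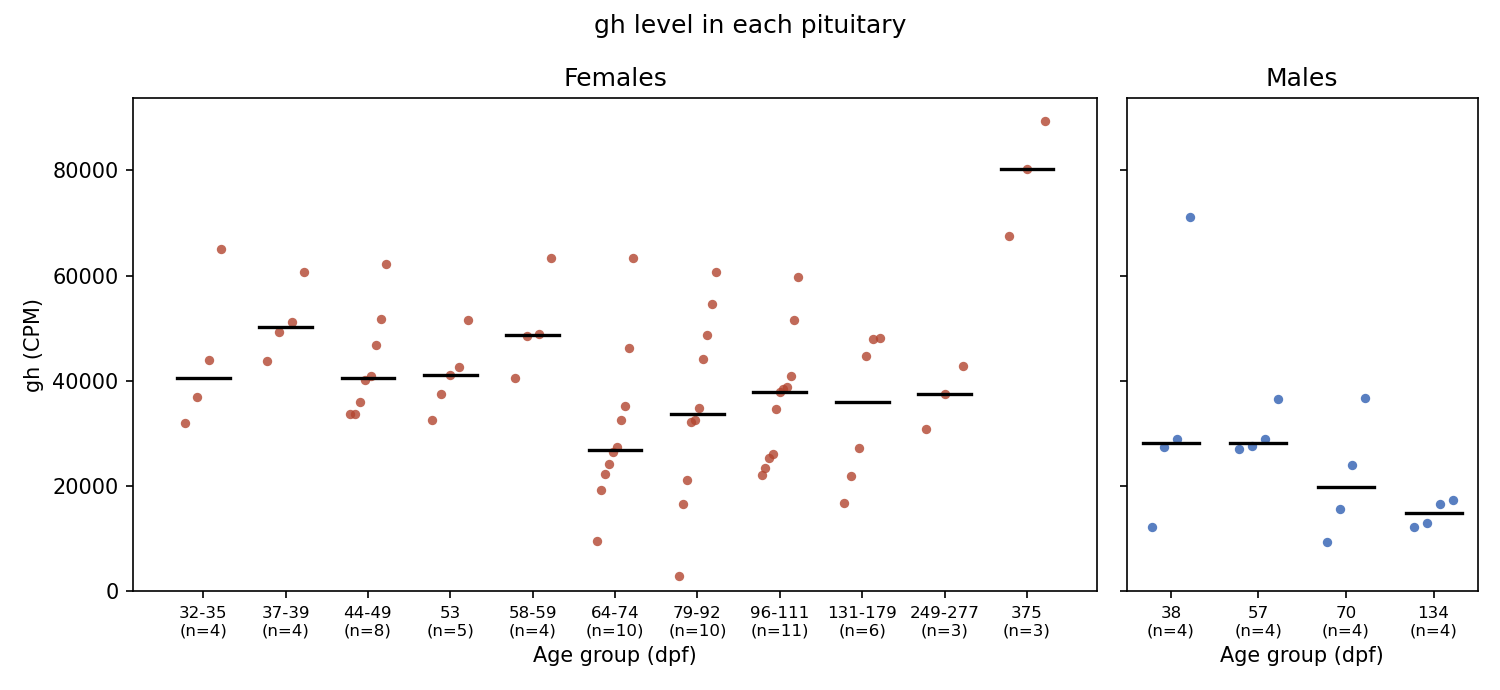
gh level (CPM, vertical axis) in each pituitary by age group (dpf, horizontal axis), females on the left and males on the right, with 1 point per fish and a bar at the group median. The 3 females of 375 dpf lie at 67551 to 89420 CPM, above all other females, and the 4 males of 134 dpf lie at 12149 to 17373 CPM.

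Among the youngest females, of 32-35 dpf, the 4 fish had 31909, 36891, 43965 and 65094 CPM of gh. The 4 females of 37-39 dpf had 43660, 49199, 51080 and 60656 CPM, and those of 44-49 dpf ran from 33592 to 62224 CPM with a median of 40548 CPM. The 3 groups overlapped over most of their range. The 5 females of 53 dpf had 32547, 37540, 41173, 42528 and 51530 CPM, and the 4 of 58-59 dpf had 40584, 48480, 48941 and 63381 CPM. Up to this age no female was below 31909 CPM.

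From 64 dpf on, lower levels occurred as well. The 10 females of 64-74 dpf had 9501 to 63296 CPM with a median of 26894 CPM. Those of 79-92 dpf had 2936 to 60705 CPM (median 33656 CPM, n = 10) and those of 96-111 dpf 22159 to 59701 CPM (median 37838 CPM, n = 11). The highest fish of each of these groups was within the range of the females of up to 59 dpf, while the lowest was below all of them. The coefficient of variation was 49.3% at 64-74 dpf, 51.5% at 79-92 dpf (38.7% without the low-hormone female) and 32.7% at 96-111 dpf, against 13.8 to 32.9% in the 5 younger groups.

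The 6 females of 131-179 dpf had 16760, 21952, 27310, 44700, 48009 and 48202 CPM. The 3 of 249-277 dpf had 30809, 37416 and 42885 CPM. The 3 oldest, of 375 dpf, had 67551, 80219 and 89420 CPM. In CPM the oldest fish stood apart from all other females, of which the highest, a fish of 32 dpf, had 65094 CPM. They were 26.0 to 29.0 mm long. With libraries scaled by TMM factors they overlapped younger females, at 54424, 76525 and 82377 CPM against 80745 CPM in a female of 87 dpf. Scaled to the counts outside the hormone genes, the lowest of them was at 86124 CPM and that younger female at 99304 CPM.

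In males the 4 fish of 38 dpf had 12134, 27414, 28921 and 71174 CPM, the widest range of the male groups. Those of 57 dpf had 26998, 27587, 28863 and 36479 CPM, and those of 70 dpf had 9287, 15546, 24052 and 36707 CPM. The 4 males of 134 dpf had 12149, 12988, 16574 and 17373 CPM. The group of 134 dpf was the most uniform in absolute level and the lowest in mean of all 15 groups, at 14771 ± 2587 CPM (SD, n = 4), but the low-hormone male of 38 dpf and 2 males of 70 dpf were within or below its range.

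Ordered by mean, the female groups ran from 64-74 dpf (30627 CPM), 131-179 dpf (34489), 79-92 dpf (34800), 96-111 dpf (36261), 249-277 dpf (37037), 53 dpf (41064), 44-49 dpf (43127), 32-35 dpf (44465), 58-59 dpf (50346) and 37-39 dpf (51149) to 375 dpf (79063). The male means were 14771 CPM at 134 dpf, 21398 at 70 dpf, 29982 at 57 dpf and 34911 at 38 dpf. Each age group was compared with the next younger one of its sex in a two-sided exact permutation test of log2(CPM + 1). Of the 13 steps, 10 in females and 3 in males, 1 had a p under 0.05. That was 64-74 against 58-59 dpf in females, with a log2 difference of -0.86 (exact permutation p = 0.0450, adjusted over the 13 steps 0.499). The step of 375 against 249-277 dpf in females was larger, with a log2 difference of 1.10 and no overlap, but 3 fish against 3 cannot give a p below 0.1, and 0.1 was found in the exact test. No step passed after adjustment.

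The series follows the pituitary through development and sexual maturation, and the group contrasts ask whether gh differs between juvenile and mature fish and between the sexes. They were fitted with edgeR's quasi-likelihood test across all genes, with p-values adjusted over all genes tested. gh passed an adjusted p of 0.05 in none of these contrasts.

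In males, the largest contrast was that of 134 against 38 dpf, at a log2 fold change of -1.48 ± 0.51 (SE, n = 4 each) with an unadjusted edgeR p of 0.00971 and an adjusted p of 0.0904. In this contrast 456 of 19502 genes were called (2.34%), 206 higher and 250 lower at 134 dpf (160 and 120 with DESeq2's size factors in place of TMM). Of the other 7 hormone genes 3 were called, all higher at 134 dpf, at log2 fold changes of 1.81 for smtla, 2.35 for fshb and 2.82 for lhb, and the median of the 7 was 1.27 against -0.013 over all genes. The value rested in part on the highest male of 38 dpf, with 71174 CPM, since without it the log2 fold change was -0.67 (adjusted p = 0.300). With body length as covariate the log2 fold change was -0.92 (adjusted p = 1.0). The 2 groups do not overlap in length, so that age and length cannot be told apart in this contrast. gh passed in DESeq2 (-1.41, adjusted p = 0.0278), in an edgeR fit of all 84 libraries (-1.48, adjusted p = 0.0268), and without the 2 low-hormone males (-1.82, adjusted p = 0.0273). On gh alone, an exact permutation test gave p = 0.143 and a log2 difference of -0.98, and the groups overlapped through the low-hormone male of 38 dpf. The 5 listed globin genes of red blood cells summed to 3219 to 8937 CPM at 134 dpf and 1267 to 115217 CPM at 38 dpf, none was at 0 in any library, and their part in the result was not tested.

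The steps between gave smaller values. gh was at a log2 fold change of -0.29 ± 0.50 (SE) at 57 against 38 dpf, -0.39 ± 0.50 at 70 against 57 dpf and -0.80 ± 0.50 at 134 against 70 dpf (SE, n = 4 each, edgeR adjusted p of 0.854, 0.897 and 0.384). The first of these had no stable direction, at 0.53 without the highest male of 38 dpf. The second was -0.15 without the low-hormone male of 70 dpf and -0.81 without the male of 70 dpf with the highest gh. The last was -1.05 (adjusted p = 0.209) and -0.39 (adjusted p = 0.724) without these same males. With body length as covariate the first was -0.097 and the last -0.51, where the groups did not overlap in length either. edgeR called 0 of 19502 genes in each of the 3 steps (0%), DESeq2 called 59, 5 and 1109, and before adjustment edgeR had 1979, 1447 and 3776 genes below 0.05.

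In females, gh was at a log2 fold change of -0.85 ± 0.45 (SE) at 131-179 dpf (n = 6) against 37-39 dpf (n = 4), with an edgeR adjusted p of 0.292. With body length as covariate the value was -1.87 (adjusted p = 0.0828), and with RIN, the RNA integrity number, -1.21 (adjusted p = 0.153). Without the low-hormone females it was -0.75 (edgeR adjusted p = 0.300). Lengths of these groups do not overlap, so that age and length cannot be told apart. In gh the groups overlapped, since 3 of the 6 older fish were at 44700 CPM or more and the lowest of the younger at 43660 CPM. In that contrast 861 of 22034 genes were called (3.91%), 387 higher and 474 lower, or 723 and 145 with library totals only. Of the other 7 hormone genes, cga and lhb were called higher at 131-179 dpf (log2 fold changes of 2.35 and 4.27) and pomca lower (-1.56). The oldest females, of 375 dpf (n = 3), differed from those of 131-179 dpf (n = 6) by a log2 fold change of 1.21 ± 0.48 (SE), with an unadjusted edgeR p of 0.0138 and an adjusted p of 0.744, where 60 of 22034 genes were called (0.272%). The exact permutation test of gh alone gave p = 0.0238 (adjusted over 10 pairs 0.0952), with no overlap. The fold change was 1.09 to 1.37 with any 1 fish of 375 dpf left out and 1.07 without the low-hormone females. With body length as covariate it was 0.61 (adjusted p = 0.955). All 3 fish of 375 dpf were longer than every fish of 131-179 dpf, so that age and length cannot be told apart here. The 3 fish share 1 labelled age, and whether they shared a tank is not stated.

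**Figure D2:**
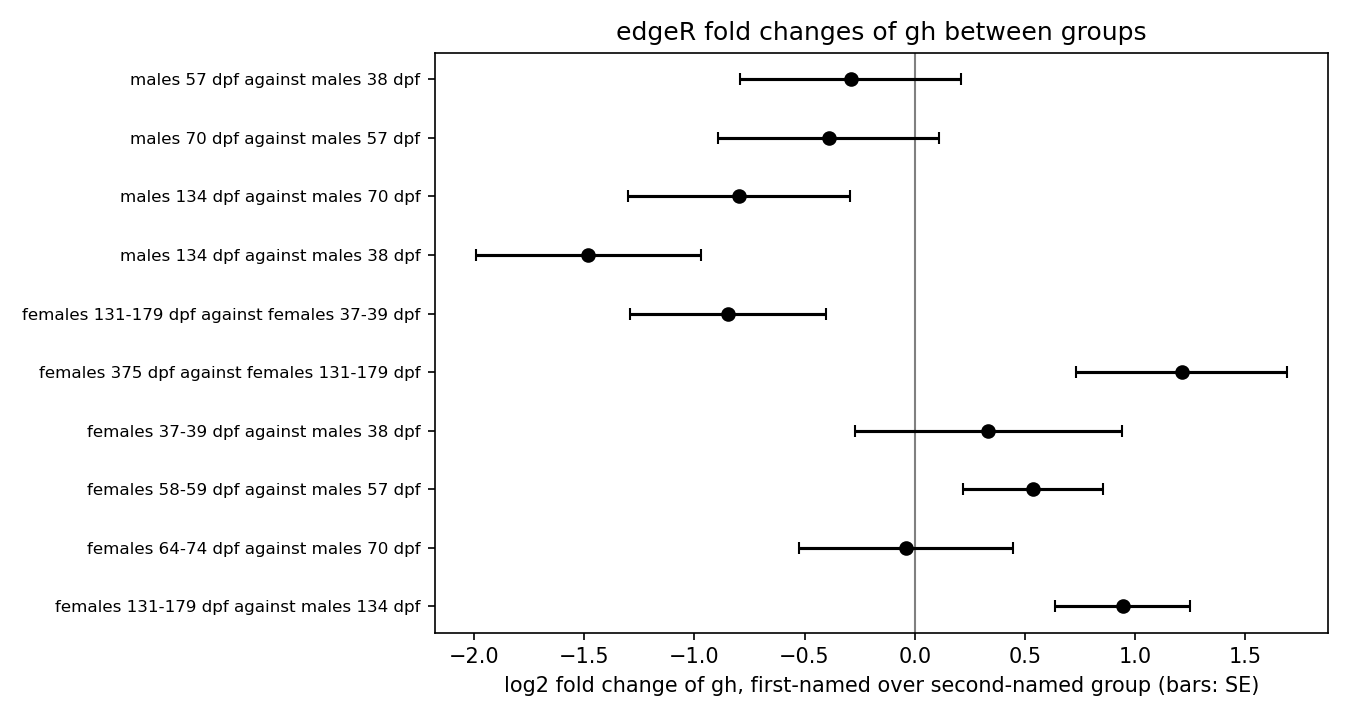
edgeR log2 fold changes of gh (horizontal axis) in 10 comparisons of groups, first-named over second-named group, with bars of 1 SE. The largest values are -1.48 ± 0.51 for males of 134 against 38 dpf and 1.21 ± 0.48 for females of 375 against 131-179 dpf, and none passed an adjusted p of 0.05.

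Between the sexes, no juvenile male lay inside the range of the juvenile females, 43660 to 60656 CPM. The highest male, with 71174 CPM, was above all of these females and the other males were below them. Females of 37-39 dpf had a mean of 51149 ± 7078 CPM (SD, n = 4) and males of 38 dpf 34911 ± 25337 CPM (SD, n = 4), and the log2 fold change was 0.33 ± 0.61 (SE, edgeR adjusted p = 0.844). It was -0.018 without the low-hormone male, 1.10 without the highest male and 0.12 to 0.40 without any 1 of the other fish. edgeR called 0 of 17562 genes (0%) between these groups, DESeq2 called 383, and before adjustment edgeR had 2209 below 0.05.

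At the next age, the 4 females of 58-59 dpf (40584 to 63381 CPM) were all above the 4 males of 57 dpf (26998 to 36479 CPM). The edgeR log2 fold change was 0.54 ± 0.32 (SE, adjusted p = 0.597), and 6 of 18464 genes were called (0.0325%). It was 0.34 without the highest of these females and 0.25 with body length as covariate. The exact permutation test of gh gave p = 0.0286, the smallest it can give for 4 against 4, and 0.0952 adjusted over the 10 pairs. When gh was scaled to the counts outside the 8 hormone genes, the groups overlapped (exact permutation p = 0.0571).

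The females of 64-74 dpf (n = 10) and the males of 70 dpf (n = 4) did not show a direction. The mean was 30627 ± 15086 CPM (SD) in the females and 21398 ± 11865 CPM (SD) in the males, a log2 difference of 0.54, while the edgeR log2 fold change, which scales the libraries by TMM factors, was -0.039 ± 0.487 (SE, adjusted p = 0.965). Library totals in place of TMM factors shifted the median of all genes by 0.59 on the log2 scale in this contrast, and gh by a similar amount, to 0.52. edgeR called 3756 of 20333 genes (18.5%), 2248 higher and 1508 lower in females, and with library totals only 6979 were higher and 302 lower. CD74 and orla-DCA summed to 246 to 768 CPM in these females and 331 to 6539 CPM in the males, with the highest value in the low-hormone male, and without this fish gh was at -0.29 (adjusted p = 0.711). Without the male of 70 dpf with the highest gh it was at 0.39.

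In adults, the 6 females of 131-179 dpf (16760 to 48202 CPM) compared with the 4 males of 134 dpf (12149 to 17373 CPM) at an edgeR log2 fold change of 0.94 ± 0.31 (SE), with an unadjusted p of 0.00717 and an adjusted p of 0.245. The low-hormone female of 179 dpf, at 16760 CPM, was the only 1 of the 6 females within the range of the males. The fold change was 0.86 to 0.99 with any 1 of the males left out and 1.08 (adjusted p = 0.0871) without the low-hormone female, and the exact permutation test of gh gave p = 0.0190 (adjusted over the 10 pairs 0.0952). In this contrast 0.519% of 19830 genes were called, 16 higher and 87 lower in females, or 54 and 33 with library totals only. Over all ages, 4 of the 68 females were below the highest male of 134 dpf.

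Whether the change of gh from juvenile to adult differs between the sexes was tested as an interaction. The log2 change, 131-179 against 37-39 dpf in females and 134 against 38 dpf in males, was negative in both sexes and less so in females, by 0.65 ± 0.65 (SE), with an edgeR adjusted p of 0.700. edgeR called 0 of 20501 genes for this term (0%), DESeq2 called 422, and before adjustment edgeR had 2710 below 0.05. The sign of the term turned without the highest male of 38 dpf, at -0.18, and without the low-hormone libraries it was 1.16.

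The share of gh among the counts of the 8 hormone genes separates the mix of hormones from the overall yield of hormone RNA. In the 5 low-hormone libraries it was 10.3 to 26.8%, as in the female of 79 dpf, where gh took 19.8% of the hormone counts although all hormone genes together took 1.48% of the library. In males the share had means of 18.9 ± 4.7% at 38 dpf, 9.39 ± 1.56% at 57 dpf, 8.18 ± 2.62% at 70 dpf and 4.78 ± 1.26% at 134 dpf (SD, n = 4 each). The 4 males of 134 dpf had 3.7, 3.9, 5.1 and 6.4%, against 12.1, 19.4, 21.7 and 22.4% at 38 dpf. These groups did not overlap, nor did those of 57 dpf (7.7 to 11.4%) and 38 dpf, and each exact permutation test gave p = 0.0286, the smallest possible, and 0.0571 adjusted over 10 pairs. At 57 against 38 dpf gh itself differed little, by a log2 difference of 0.049 in CPM and -0.29 in edgeR. The 7 other hormone genes had a median edgeR log2 fold change of 0.78 there, with none called.

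In females of the corresponding ages the shares overlapped. The share was 18.9 ± 5.1% at 131-179 dpf (SD, n = 6) and 19.2 ± 4.2% at 37-39 dpf (SD, n = 4). Adult females of 131-179 dpf, at 13.4 to 25.7%, did not overlap with the males of 134 dpf, at 3.7 to 6.4%. Nor did females of 58-59 dpf (mean 17.2%) and males of 57 dpf (mean 9.39%, exact permutation p = 0.0286, adjusted over the 10 pairs 0.0571). The sexes overlapped in share at 37-39 and 38 dpf and at 64-74 and 70 dpf. The pair of 131-179 and 134 dpf was the only one of the 10 pairs past 0.05 after adjustment on any of the 3 scales tried (exact permutation p = 0.00476, adjusted over the 10 pairs 0.0476). The exact tests of these pairs were chosen after seeing the data. For 6 fish against 4, 0.00476 is the smallest p possible, while 4 against 4 cannot give a p below 0.0286, so that group size limits which pairs can pass. The adjustment was made within each scale and not over the 3 scales. The females of 375 dpf had the highest shares of all, 32.6, 34.1 and 35.9%, where the next highest female, of 64 dpf, had 28.5%. The share depends on the other hormone genes as well. Of the 7 others, prl, smtla and pomca, the precursor gene of corticotropin and α-melanotropin, were called lower in females of 131-179 dpf than in males of 134 dpf (log2 fold changes of -1.31, -1.41 and -2.50), and tshba and cga higher (1.47 and 1.17), while fshb and lhb were not called.

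**Figure D3:**
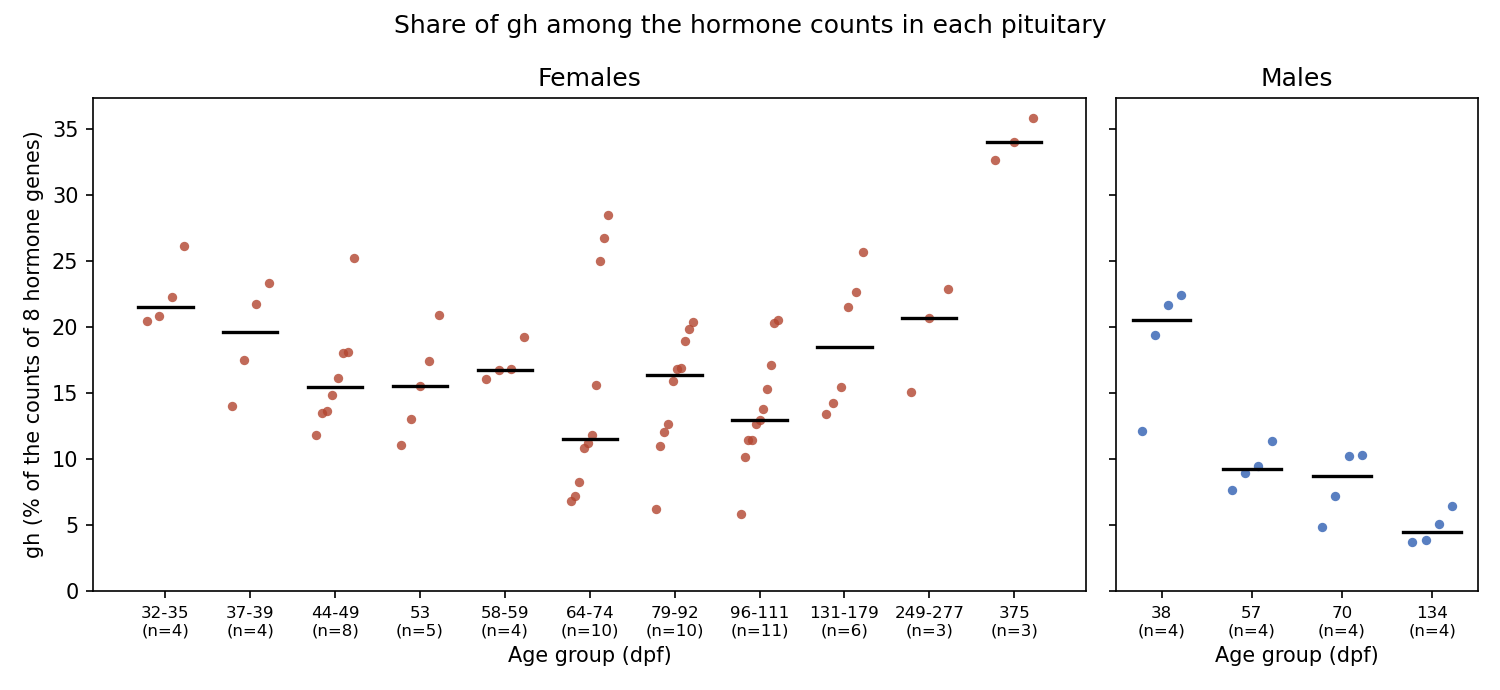
Share of gh in the counts of 8 hormone genes (%, vertical axis) in each pituitary by age group (dpf, horizontal axis), females on the left and males on the right, with 1 point per fish and a bar at the group median. The males lie at 12.1 to 22.4% at 38 dpf and 3.7 to 6.4% at 134 dpf, and the females of 375 dpf at 32.6 to 35.9%.

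Body length is the readout closest to the hormone's known action. Over all 68 females, gh (log2 CPM) and length had a Pearson r of 0.196 (permutation p = 0.109) and a Spearman rho of 0.073 (permutation p = 0.555), and r was 0.079 without the 2 fish farthest from the median length. With the log2 of labelled age the r was 0.018 (permutation p = 0.880) and rho -0.143 (permutation p = 0.244). Without the oldest fish the r with age changed sign, from a value near 0, while rho was negative with and without them. Without the 3 females of 375 dpf r was -0.207 (permutation p = 0.0999) and rho -0.309 (permutation p = 0.0123), and in the 56 females of up to 111 dpf r was -0.277 (permutation p = 0.0355) and rho -0.335 (permutation p = 0.0125). Both sets leave out the 3 females that are oldest and highest in gh, which by itself moves these values down. The set without the females of 375 dpf was chosen after seeing the data.

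Females of 64-111 dpf spanned lengths of 10.0 to 20.0 mm at similar ages, which allows length to be read with less change in age. In these 31 fish gh was positively related to length, with r = 0.554 (permutation p = 0.00107, adjusted over the 4 relations 0.00428) and rho = 0.409 (permutation p = 0.0239). Without 2 fish farthest from the median length, of 10.0 and 10.5 mm, which are also the low-hormone females of these ages, r was 0.451 (permutation p = 0.0141) and rho 0.317 (permutation p = 0.0953). Another fish of 10.5 mm was as far from the median, and with it left out in place of the first of that length r was 0.590 and rho 0.340 (permutation p = 0.0722). Without the 4 shortest fish r was 0.212 (permutation p = 0.286), so that the relation rests on them. The 4 shortest fish, of 10.0 to 11.0 mm, had 24268, 2936, 22159 and 9501 CPM. The 4 longest, of 19.0 to 20.0 mm, had 46184, 38463, 19208 and 26412 CPM, so that the longest fish were not the highest. The highest levels, 54515 to 63296 CPM in 4 fish, were at 15.5 to 17.5 mm.

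The relation was weaker in part of the alternatives. Without the low-hormone female of 79 dpf r was 0.458 (permutation p = 0.0113) and rho 0.352 (permutation p = 0.0567), and with TMM-scaled CPM they were 0.524 (permutation p = 0.00225) and 0.330 (permutation p = 0.0697). RNA integrity, given as the RIN, was related in Pearson's r to gh over all females that have one (r = 0.366, permutation p = 0.00649, and rho = 0.242, permutation p = 0.0691, n = 57), and given RIN the relation of gh and length in the 27 females of 64-111 dpf with a RIN was 0.358 (permutation p = 0.0682). That value leaves out the fish without a RIN, so that it is not over the same fish as the r of 0.554. In the 19 females of these ages with a RIN of at least 9, r was 0.589 (permutation p = 0.00960) and rho 0.370 (permutation p = 0.120). Without the 2 of them farthest from the median length r was 0.194. For the share of gh in the hormone counts the r with length was 0.183 (permutation p = 0.325, n = 31). Without the 2 low-hormone females of these ages the r of the share was 0.469 (permutation p = 0.0102) and rho 0.333. The part of RNA quality and of hormone yield in the relation was not tested beyond these values.

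**Figure D4:**
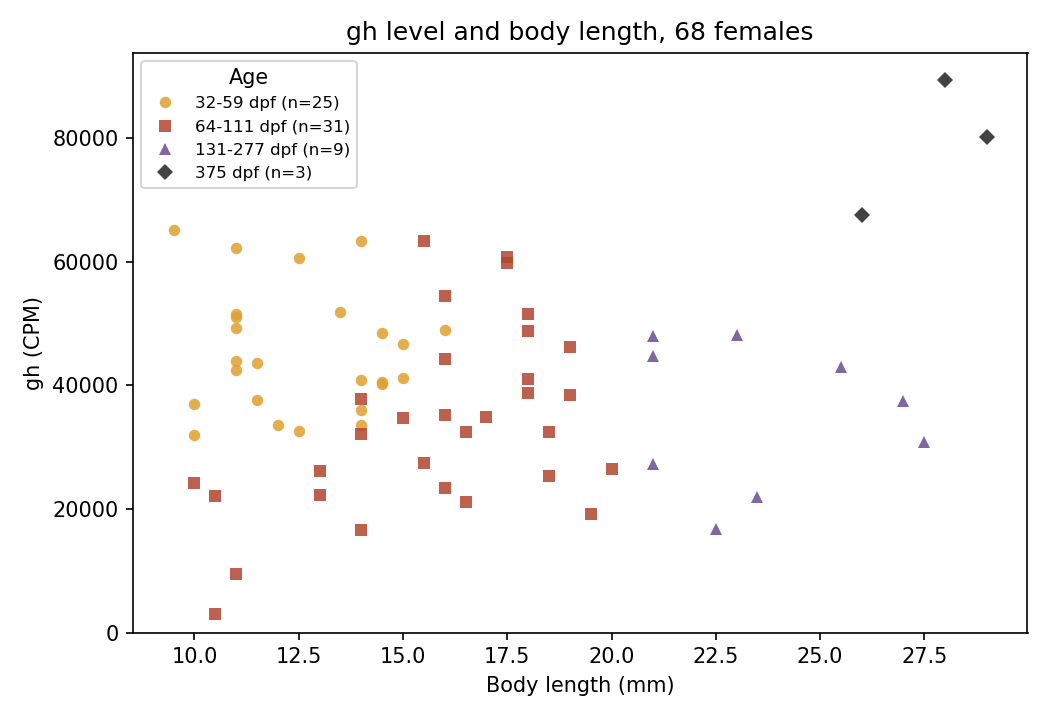
gh level (CPM, vertical axis) against body length (mm, horizontal axis) in the 68 females, with colour and shape giving the age range. The 31 females of 64-111 dpf (squares) include the fish with the lowest level, 2936 CPM at 10.5 mm, and the 3 females of 375 dpf (diamonds) lie at 67551 to 89420 CPM.

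Within labelled ages the relation was less clear. In 56 females of 18 labelled ages with 2 or more fish, deviations of gh and length from their age means had r = 0.353 (permutation p = 0.0473 with length permuted within ages, adjusted over the 4 relations 0.0947) and a slope of 0.11 log2 per mm. The rho of these deviations was 0.158, for which no p was computed. Without the low-hormone female of 79 dpf r was 0.193 (permutation p = 0.299) and rho 0.070. Of the 11 labelled ages with at least 3 females, r was above 0 in 7, and the longest fish was above the shortest in 6. At 111 dpf (n = 5) the longest fish, of 19.0 mm, had 38463 CPM and the shortest, of 10.5 mm, 22159 CPM. At 53 dpf (n = 5) the order was the opposite, with 41173 CPM at 15.0 mm and 51530 and 42528 CPM at 11.0 mm. At 32, 39, 45 and 87 dpf the shortest fish was also above the longest.

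A joint edgeR fit of length and log2 age over the 68 females gave gh a slope of 0.085 ± 0.044 log2 per mm (SE) given age, with an unadjusted p of 0.0571 and an adjusted p of 0.310, where 1157 of 21532 genes were called (5.37%), 140 with a positive and 1017 with a negative slope, or 344 and 891 with library totals only. Given length, the slope was -0.45 ± 0.23 log2 per doubling of age (SE, unadjusted p = 0.0620, adjusted p = 0.386), where 388 genes were called (1.8%). Neither passed, and without the 3 low-hormone females the slopes were 0.047 per mm and -0.26 per doubling.

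The hormone gene most like gh was tshba (ENSORLG00000029251), which encodes the β-subunit of thyrotropin. Over the 68 females, log2 CPM of both had r = 0.720 (permutation p = 1e-05, the smallest that 100000 permutations can give) and rho = 0.522 (permutation p = 1e-05), the highest of the 7 other hormone genes. Without the low-hormone female of 79 dpf r was 0.539 and rho 0.500. By rho it ranked 4 of the 11802 genes with a median of at least 10 CPM in females, and over the 16 males rho was 0.735. The libraries share depth, RNA quality and scaling, so that these are descriptions of likeness.

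Several fish stood out in both genes. The female of 375 dpf with the highest gh had 12146 CPM of tshba. The highest male of 38 dpf had 14841 CPM of tshba beside 71174 CPM of gh, and the low-hormone male of that age had 325 CPM beside 12134 CPM. Other fish were high in only 1 of the genes. The highest tshba of the females, 12542 CPM, was in a fish of 249 dpf with 42885 CPM of gh. A female of 58 dpf with 63381 CPM of gh had 4198 CPM of tshba, and a female of 64 dpf with 63296 CPM had 3379 CPM. In the 4 males of 134 dpf tshba was at 1058, 1423, 1513 and 2619 CPM, against 325, 5544, 6630 and 14841 CPM at 38 dpf, which did not pass the test (log2 fold change -2.29 ± 0.74 SE, edgeR adjusted p = 0.0833).

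**Figure D5:**
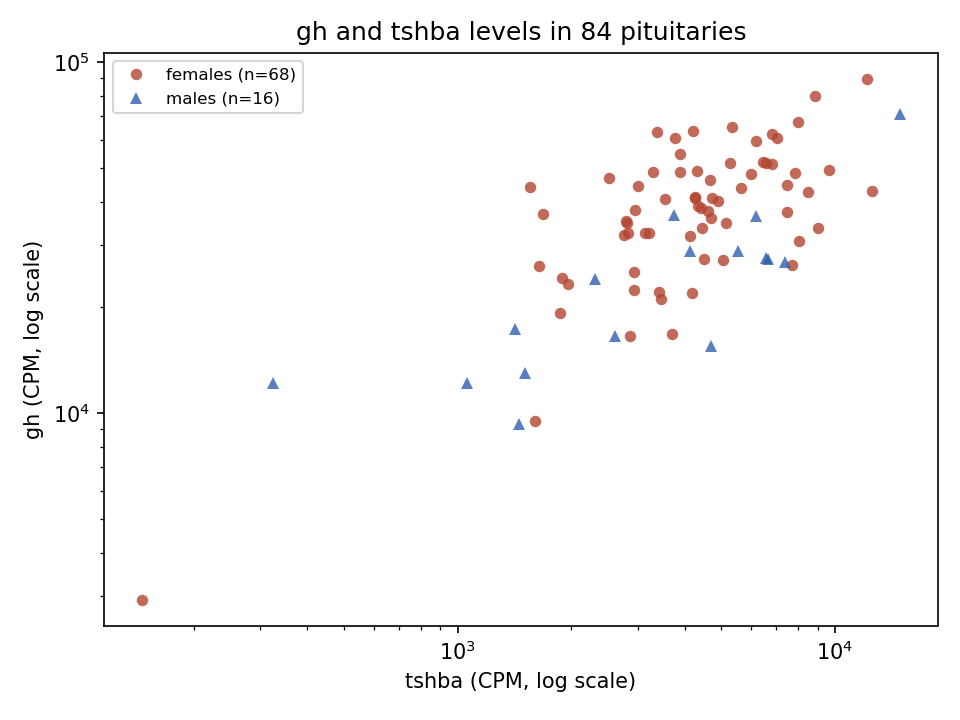
gh against tshba (both CPM, log scales) in 84 pituitaries, 68 of females (circles) and 16 of males (triangles). Both genes vary together in females (r = 0.720, or 0.539 without the fish with 2936 CPM of gh), and the males of 134 dpf lie at 12149 to 17373 CPM of gh and 1058 to 2619 CPM of tshba.

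Of the other hormone genes, cga, the gene of the shared α-subunit of thyrotropin and the gonadotropins, had rho = 0.310 with gh (permutation p = 0.0103, adjusted over 7 genes 0.0362). fshb, the β-subunit gene of follicle-stimulating hormone, had rho = 0.263, smtla 0.228, lhb 0.161, prl 0.126 and pomca -0.008. None of these passed 0.05 in rho after adjustment. In Pearson's r all of these passed (adjusted permutation p of 0.0313 or below). Their r was 0.435 for fshb, 0.423 for smtla, 0.279 for prl, 0.278 for pomca and 0.273 for lhb. Without the female with the lowest gh, none of these passed in r. The r was 0.268 for fshb (adjusted permutation p = 0.0637), 0.205 for smtla, 0.166 for lhb, 0.046 for prl and -0.057 for pomca. By rho, the 2 relatives of gh in the hormone family were less like it across females than tshba was. Scaled to the counts outside the hormone genes, rho was 0.271 for prl and 0.293 for smtla, against 0.561 for tshba. On that scale r was 0.559 for prl and 0.532 for tshba without the 2 fish farthest from the median of each gene. These r are over different fish and do not rank the 2 genes. For prl, 2 females of 32-35 dpf, with 1215 and 3350 CPM of prl, were left out. The low-hormone female of 79 dpf was kept for prl and left out for tshba. In CPM without this female, r was 0.046 for prl and 0.539 for tshba. pou1f1 had a rho of 0.126 with gh in females and 0.509 in males, and it was not called in any of the contrasts in which gh was tested. Among the other listed genes the most like gh was mdkb, a midkine gene (rho = 0.302), and the least were pax7, a melanotrope transcription factor gene in mammals (-0.315), pcsk2, a prohormone convertase gene (-0.072), and 1 of the globin genes (-0.032).

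Over all genes with a median of at least 10 CPM, the most positive rho with gh across females were 0.529 for ENSORLG00000006589 and 0.524 for ENSORLG00000024587, which in males had 0.441 and 0.656. The most negative were -0.606 for ENSORLG00000022773 and -0.565 for ENSORLG00000008753, with 0.009 and -0.212 in males. These identifiers have no gene name in the sources used here.

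Across females the globin genes of red blood cells had r = 0.046 with gh (permutation p = 0.698) and CD74, of antigen-presenting cells, -0.147 (permutation p = 0.227). The total count of a library had r = 0.297 (permutation p = 0.0172) and the share of the other 7 hormone genes 0.312 (permutation p = 0.0114), and with RIN these were 5 relations, of which those with RIN, total count and hormone share had an adjusted p of 0.0286, 0.0287 and 0.0286 in r. In rho, total count passed (0.339, adjusted permutation p = 0.0231), RIN was at 0.242 (adjusted permutation p = 0.173) and hormone share at 0.101 (adjusted permutation p = 0.669), and without the 2 fish farthest from its median the r of hormone share was 0.172. The females of 375 dpf had total counts of 5783815 to 6575627, 13.9 to 17.3% of counts in the other hormone genes, against 9.16 to 17.5% at 131-179 dpf, and a RIN of 9.8 in the 2 fish that have one. CD74 and orla-DCA summed to 628 to 1523 CPM in these fish (median 1244 CPM, the highest of the group medians), against 309 to 1557 CPM at 131-179 dpf (median 808 CPM), and their part in the level of gh was not tested.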

How the data were processed

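Single pituitaries of 84 fish were turned into cDNA by the authors with the Smart-SEQ HT kit and sequenced on a NovaSeq. The authors deposited raw counts, whole numbers for each gene, with no normalization. STAR 2.7.6a, SAMtools 1.10 and HTSeq 0.11.2 appear in the submitters' processing notes. Reads were aligned to Ensembl's Hd-rR genome, to which the authors had added a GFP cassette and corrected exon ends. The methods name the intersection-nonempty mode of htseq-count for other alignments of the study, while the mode used for these counts, and whether they are by strand, is not given in the sources used here. Thus gh and any overlapping or antisense transcript cannot be separated. Every row bears a gene or cassette name, and 0 columns lack a labelled fish.

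For each library, CPM, CPM outside the 8 hormone genes and the share of gh in the hormone counts were computed. Contrasts used edgeR 4.0.16 (R 4.3.3): genes kept by filterByExpr, TMM scaling, a quasi-likelihood fit with robust estimation, and p adjusted by Benjamini-Hochberg over all genes kept (threshold 0.05). Male contrasts were fitted over all 16 males, female contrasts over all 68 females and sex contrasts over the groups compared, and the SE was taken from the F statistic. Alternatives were DESeq2 1.42.0, other scaling factors and filters, RIN or body length as covariates, other sets of fish, and each fish of small groups left out in turn. gh alone was tested on log2(CPM + 1) by two-sided exact permutation of absolute mean differences, and correlations by 100000 permutations, in Python 3.11.15 (numpy 2.4.6, scipy 1.17.1, pandas 2.3.3, matplotlib 3.10.9 for plots). The edgeR and permutation functions were tested on simulated data.

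The gene, the lists and the comparisons were chosen with earlier results of these data known. Named genes are gh, the 7 other hormone genes, pou1f1, marker genes beside a result, the 2 genes with the most positive and the 2 with the most negative rho with gh across females (median of at least 10 CPM), and the 3 of each sign among 30 listed genes, which come from the study. No gene of the reference list of symbols carried an Ensembl identifier, so receptors and other genes of the growth hormone axis were not analysed here.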

Additional observations from a re-analysis of the deposited data

Results flagged for a closer look

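Of 24 combinations of a group of 4 to 10 fish and a measure of gh, 1 held a fish farther from the others than the 95% critical value of Dixon's test allows. A female of 45 dpf and 11.0 mm, of the 8 females of 44-49 dpf, had 25.2% of its hormone counts in gh, where the other 7 had 11.9 to 18.1%. In gh level it was also the highest of its group, at 62224 CPM, but not beyond the critical value. Chance alone would mark about 1 in 20 groups. Groups of 3 fish, such as the females of 375 dpf, and the 11 females of 96-111 dpf were not tested in this way.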

How the results depend on the processing

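The 278 values from alternative settings (75 of them with 1 fish left out) kept the direction and the side of the threshold in 249, and the cause of the other changes was not tested. The threshold was on the adjusted p for contrasts and the unadjusted p for correlations, and counts were judged by size alone. Most main values had not passed, so that staying on that side is a weak criterion. Some settings removed no fish from a relation or removed the same fish as another setting, and so repeat a value. For males of 134 against 38 dpf, gh passed in DESeq2 (-1.41) and in the fit of all 84 libraries (-1.48). In a setting chosen after seeing the data, it also passed without the 2 low-hormone males (-1.82, 234 genes called higher and 270 lower). For males of 57 against 38 dpf the value was 0.049 in the exact permutation test of gh alone, also chosen after seeing the data, and -0.62 to 0.53 with 1 fish left out. For females of 37-39 against males of 38 dpf it was -0.018 without the low-hormone libraries and -0.018 to 1.10 with 1 fish left out. For females of 64-74 against males of 70 dpf it was 0.52 with library totals only, 0.030 with RIN and 0.17 with body length as covariate, 0.044 in the fit of all libraries, 0.54 as the difference of log2 CPM tested by exact permutation, and -0.29 to 0.39 with 1 fish left out. The sex difference in the change was -0.18 to 0.94 with 1 fish left out. Over all females, length had r = 0.255 with the share of gh in the hormone counts, and age had r = -0.056 with TMM-scaled CPM, -0.277 without females over 111 dpf, -0.125 given RIN and -0.207 without those of 375 dpf. At 64-111 dpf, r with length was 0.183 for the share of gh (0.469 without the 2 low-hormone females) and 0.358 given RIN. Within labelled ages it was -0.120 for the share, 0.193 without the low-hormone female of 79 dpf, 0.182 given RIN, 0.350 without the females of 375 dpf and 0.311 without the low-hormone libraries. Of the 7 other hormone genes, 2 passed in rho with gh (tshba and cga), 5 when scaled to the counts outside the hormone genes, and 1 without that female.

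Library totals in place of TMM factors shifted the median of all genes by 0.19 to 0.59 (log2) in 6 of the contrasts. The number of genes called depended more on the setting than gh did. It ran from 0 to 5418 for males of 134 against 38 dpf, 0 to 426, 0 to 709 and 0 to 3554 for the male steps in order of age, 366 to 1365 for females of 131-179 against 37-39 dpf, and 0 to 72 for those of 375 against 131-179 dpf. For females against males it ran from 0 to 2855, 0 to 75, 320 to 7281 and 10 to 332 in order of age, and for the sex difference from 0 to 485. For length given age it was 18 to 1644 and for age given length 4 to 391, both lowest without the low-hormone females. Single fish moved these counts as well, to 1870 for males of 134 against 38 dpf without the low-hormone male of 70 dpf, and to 419 for length and 13 for age without the low-hormone female of 79 dpf. The counts of gh, at least 13723, do not limit these results, which are limited by 3 to 11 fish per group.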
